A study of Mus musculus with 24 samples.

Results

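Cholesterol synthesis and sterol homeostasis were followed here through 31 listed genes. They are 19 synthesis enzymes, 4 genes for the transcription factor SREBP-2 and its control, and 8 genes of sterol efflux, storage, uptake or transport. Of these, 28 were measured, each by a single probe set that names that gene alone, among 19505 genes tested. Acat2, Tm7sf2 and Soat1 were not analysed here, which left 17 enzymes, all 4 control genes and 7 of the third class. RNA was profiled on 24 arrays from ICR-CD1 mice in 6 groups of 4: at embryonic day 7.5 (ED7.5), at ED14.5 and in the liver at postnatal day 7.5 (PD7.5), each with grandoffspring of obese (SL) grandfathers and grandoffspring of control grandfathers. All groups share the strain, snap-freezing after CO2 euthanasia and Trizol extraction. What SL abbreviates, how many grandfathers or litters stand behind a group, and whether animals were pooled is not stated by the labels, so p-values measure only the spread between these samples.

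Cells build cholesterol from acetyl-CoA through mevalonate, squalene and lanosterol. When membrane sterol runs low, SCAP escorts SREBP-2 out of the endoplasmic reticulum, where INSIG proteins otherwise hold it, and the released factor switches on most of the enzymes, usually together with NF-Y bound at a CCAAT box. Surplus sterol instead activates liver X receptors, which raise the efflux pumps ABCA1, ABCG5 and ABCG8 and the LDL receptor ligase MYLIP.

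The tissue behind each age has to be read from its markers. Samples labelled whole embryo at ED7.5 had decidua markers at a mean level in the 97.8th percentile of all genes in controls and epiblast markers in the 27.7th, with Fgf5, Nanog and Sox2 at background on all 8 arrays. Samples labelled whole embryo at ED14.5 had hepatocyte markers in the 98.9th percentile and all 5 muscle and cartilage markers at background. PD7.5 livers had hepatocyte markers in the 99.7th percentile. Erythroid markers lay in the 98.9th percentile in ED14.5 controls and in the 85.8th in PD7.5 control livers, so the mix of cells differed between these ages too. Age and tissue therefore change together, and in bulk RNA fewer cells of a type cannot be told apart from less RNA per cell. Values are log2 on the scale the authors deposited, and a level is called above background when it exceeds the 75th percentile of 5222 negative control probe sets of its array. Of the 28 members, 26 were above background on every array, and Abcg5 and Abcg8 were above it in liver alone.

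The promoters are shown first because the enzymes share a feature in them. RefSeq promoter sequences (build GRCm38.p6, 250 bases before to 50 after a start) matched 23 of the 28 measured genes, with 30 promoters; Fdft1, Fdps, Npc1, Sqle and Stard4 were not matched. The NF-Y box, CCAAT or its reverse ATTGG, was in 21 of these 30 promoters (70.0%), against 37.4% of all 32851 promoters of the table. Counted by gene, all 14 synthesis enzymes with a promoter held it in at least 1 promoter, 3 of 4 SREBP control genes did and 4 of 5 efflux and transport genes did, against 41.1% of all 27025 genes. The Abcg5 and Abcg8 windows overlap, and a box in the overlap counts for both. It is the only box of Abcg5 and lies at 1 to 5, directly after its start. The sterol regulatory element searched, TCACNCCAC on either strand, was in 1.24% of all promoters and in 1 of the 30, that of Hmgcs1, the gene of the enzyme that makes HMG-CoA. A liver X receptor element, a direct repeat of AGGTCA with 4 bases between and at most 1 mismatch on either strand, was in 0.25% of all promoters and in 0 of the 30. A match is a string of letters and not a measured binding site. Elements spelled otherwise, or lying outside these windows, would be missed, so a promoter without a match may still hold one.

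The stretches below are the 250 bases before the start on the gene's own strand, 5′ to 3′, with motif matches in capitals. The first is Hmgcs1 (chr13:119690101-119690350, plus strand), the member that matched the sterol element searched. Mvk (chr5:114444019-114444268, plus strand), mevalonate kinase, had the smallest p-value of any member in the liver comparison. Cyp51 (chr5:4104698-4104947, minus strand) and Mvd (chr8:122443423-122443672, minus strand) are the members with the smallest p-values at ED14.5.
Hmgcs1: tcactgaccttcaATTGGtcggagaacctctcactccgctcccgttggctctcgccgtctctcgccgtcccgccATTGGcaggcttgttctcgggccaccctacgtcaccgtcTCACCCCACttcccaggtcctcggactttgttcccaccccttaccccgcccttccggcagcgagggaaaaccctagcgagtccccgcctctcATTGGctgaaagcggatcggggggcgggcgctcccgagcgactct
Mvk: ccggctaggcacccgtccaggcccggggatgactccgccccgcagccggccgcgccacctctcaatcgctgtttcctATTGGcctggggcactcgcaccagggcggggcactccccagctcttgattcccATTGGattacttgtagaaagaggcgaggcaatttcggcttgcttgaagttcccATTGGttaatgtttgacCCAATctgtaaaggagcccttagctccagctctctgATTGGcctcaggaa
Cyp51: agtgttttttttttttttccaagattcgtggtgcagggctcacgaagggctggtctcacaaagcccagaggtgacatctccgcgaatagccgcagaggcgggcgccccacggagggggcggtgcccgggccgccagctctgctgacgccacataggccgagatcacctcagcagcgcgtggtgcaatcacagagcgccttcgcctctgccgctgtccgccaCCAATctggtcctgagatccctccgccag
Mvd: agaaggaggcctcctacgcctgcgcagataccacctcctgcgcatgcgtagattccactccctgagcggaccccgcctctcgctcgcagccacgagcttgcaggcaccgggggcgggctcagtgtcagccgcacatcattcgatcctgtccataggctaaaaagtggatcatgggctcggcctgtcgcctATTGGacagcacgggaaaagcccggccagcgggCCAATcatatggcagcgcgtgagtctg
In Hmgcs1 the match to the sterol element lies at -137 to -129. Its ATTGG boxes start at -237, -176 and -45, and a further one at 11 lies beyond the start. Mvk held 5 boxes, more than the other members. Its 4 ATTGG boxes start at -173, -120, -67 and -14, so each lies 53 bases from the next, and the letters around them matched at only 17 or 18 of 53 positions between neighbours. Cyp51 held a single box at -29, and Mvd held boxes at -60 and -27.

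Abcg5 and Abcg8, whose proteins pair into 1 sterol pump, lie head to head on chromosome 17. An Abcg5 start at 84683011 (minus strand) and 1 of the 2 Abcg8 starts listed, at 84683121 (plus strand), leave 109 bases between them. This stretch (chr17:84683012-84683120, written on the plus strand) holds no match to the motifs searched, but an NF-Y box directly adjoins it. That box lies at 1 to 5 of Abcg5 and at -114 to -110 of Abcg8. The other Abcg8 start is at 84676302 (plus strand), on the far side of the Abcg5 start.
Abcg5 to Abcg8: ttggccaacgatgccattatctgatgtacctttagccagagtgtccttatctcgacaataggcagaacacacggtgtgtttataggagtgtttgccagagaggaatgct

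**Figure D1:**
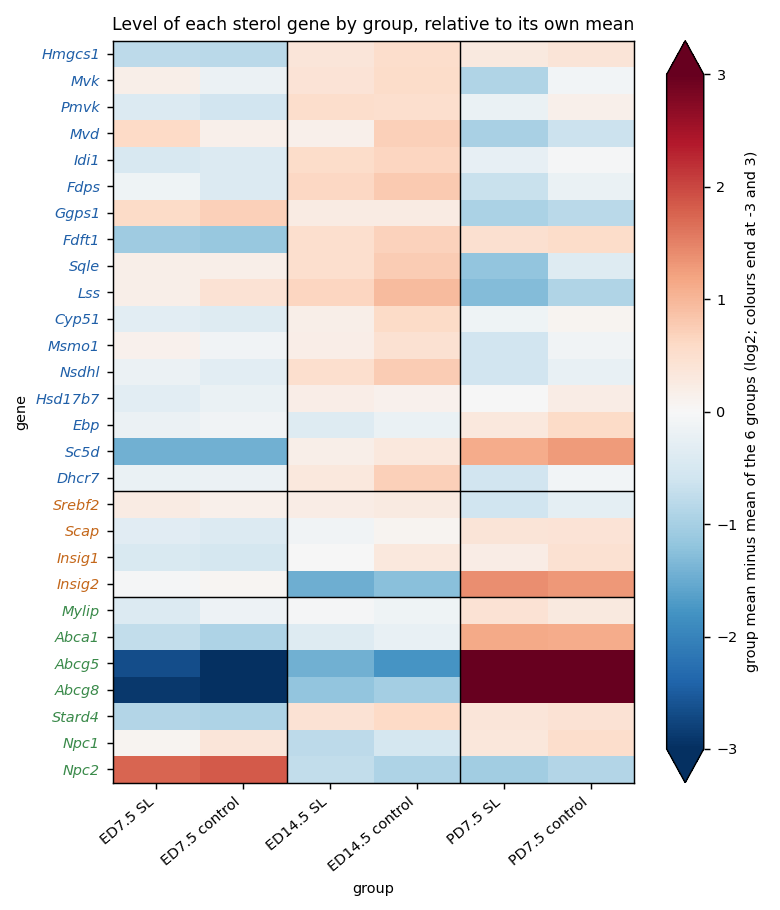
Mean log2 level of each measured gene in the 6 groups (columns, 4 arrays each), relative to that gene's own mean over the groups. Enzyme names are blue, SREBP control genes orange, efflux and transport genes green. Abcg5 and Abcg8 run past the ends of the colour scale, and their embryonic values are at background.

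In control PD7.5 livers 12 of 28 members fell and 9 rose relative to control ED14.5 samples (adjusted p below 0.05, limma with Benjamini-Hochberg adjustment over all genes), against 24.6% lower and 20.5% higher among all genes. The fall lay in the enzymes, of which 11 of 17 fell and 2 rose, with a median difference of -0.64. The efflux and transport genes had 5 of 7 higher, none lower, and a median of 1.04. The largest drops were in Lss, lanosterol synthase (9.42 ± 0.145 in liver against 11.28 ± 0.0984 at ED14.5, SD, n = 4 each; adjusted p = 1.04e-06), and in Mvd, mevalonate diphosphate decarboxylase, by 1.34. Sqle, squalene epoxidase, dropped by 1.15. Ggps1 and Fdps, which make the longer isoprenoids, dropped by 1.06 and 1.00. The 2 enzymes that rose were Sc5d, the sterol C5-desaturase, by 0.98 and Ebp, the sterol isomerase, by 0.76. Among other steps after lanosterol, Nsdhl fell by 0.96, Dhcr7 by 0.79, Msmo1 by 0.57 and Cyp51 by 0.49. Hsd17b7, a further such step, did not pass (a difference of 0.09, adjusted p = 0.607). Hmgcs1 did not pass (a difference of -0.13, adjusted p = 0.321).

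The pumps gave the widest contrast. Abcg5 had 10.93, 10.87, 11.27 and 11.36 in control livers, against 4.76, 4.86, 5.60 and 4.54 at ED14.5, where no array was above background. Its fold difference is therefore a bound, at least 31.5-fold, and that of Abcg8 is at least 18.9-fold (adjusted p = 3.91e-08 for Abcg5 and 1.33e-08 for Abcg8). Both bounds set the liver mean against the higher, on each array, of the lowest signal above background and the probe set's own value. Abca1, which loads cholesterol onto apolipoprotein A-I, rose by 1.33, and Npc1, which exports cholesterol from lysosomes, rose by 1.05. Among the control genes, Insig2, a retention factor known to be abundant in liver, rose by 2.54 (9.38 ± 0.209 against 6.85 ± 0.152, SD, n = 4 each). Its paralogue Insig1, itself an SREBP-2 target, differed by 0.13 (adjusted p = 0.533), and Srebf2, the gene of SREBP-2, fell by 0.57 (adjusted p = 0.00491).

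Relative to control ED7.5 samples, most members were higher in control ED14.5 samples: 20 of 28 rose and 4 fell, against 25.6% higher and 26.3% lower among all genes. Among the enzymes 14 of 17 rose and 1 fell, with a median difference of 0.90. Fdft1, squalene synthase, was 11.13 ± 0.0438 at ED14.5 against 9.29 ± 0.239 at ED7.5 (SD, n = 4 each; adjusted p = 7.83e-07). Sc5d rose by 1.74 and Hmgcs1 by 1.33. Stard4, a soluble sterol carrier, rose by 1.53. The 4 members in the other direction were Npc2, the soluble lysosomal partner of NPC1, which fell by 2.78, Insig2, which fell by 1.31, Npc1, which fell by 0.89, and Ggps1, which fell by 0.46. Abcg8 was also counted as higher, by 2.05, yet it was at background on all 8 arrays, as was Abcg5, so these differences lie between values not above background.

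The wider pathway was followed through 36 other genes, 28 of them measured. Between control livers and control ED14.5 samples 15 of these 28 rose and 6 fell (all genes: 20.5% and 24.6%), and between control ED14.5 and ED7.5 samples 12 rose and 8 fell (all genes: 25.6% and 26.3%). The genes counted as lower include Ch25h, cholesterol 25-hydroxylase, in both comparisons, although it was at background on every array of those groups.

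**Figure D2:**
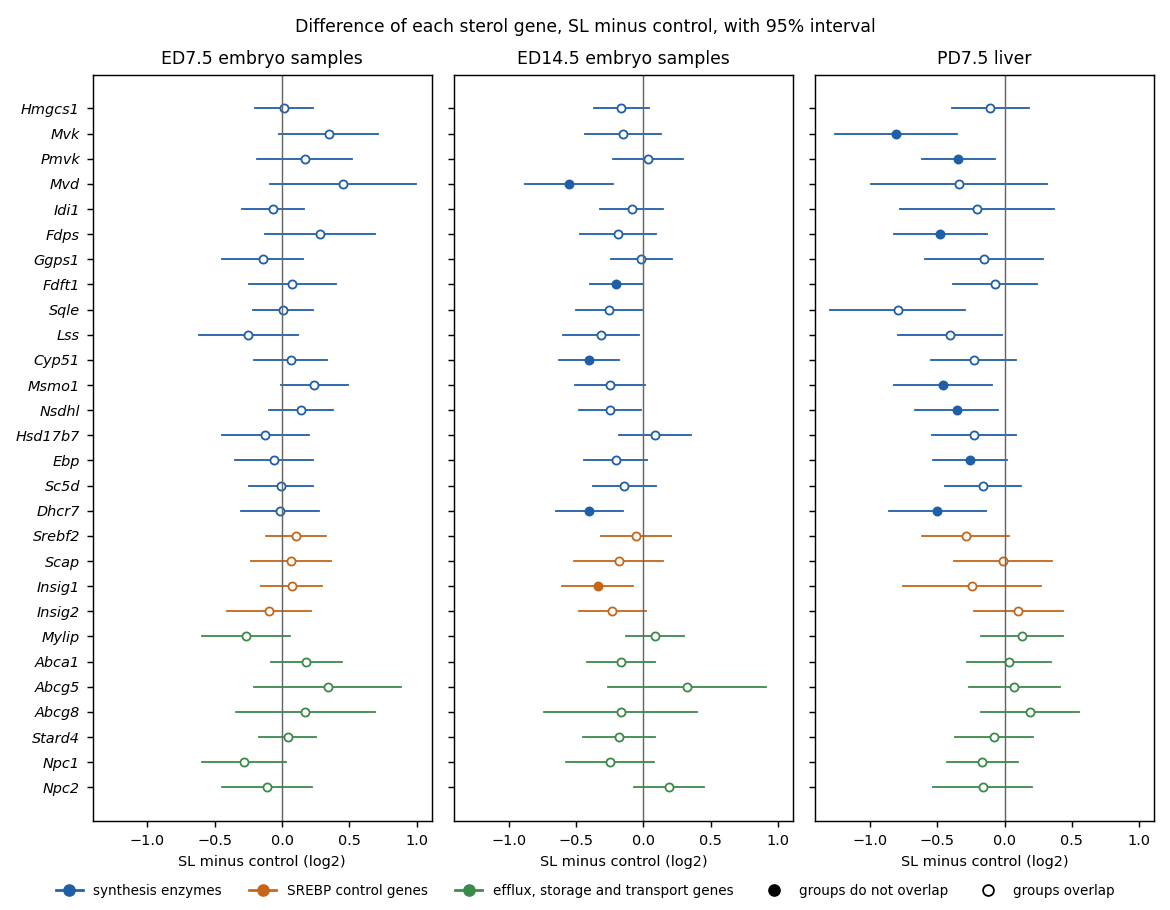
Difference in log2 level, SL minus control, of each measured gene at the 3 ages, with its 95% interval from limma (4 arrays against 4). Filled points mark genes whose groups do not overlap. Filled points lie to the left of 0 at ED14.5 and in liver, and ED7.5 has none.

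The study's question was whether grandoffspring of SL grandfathers differ from those of control grandfathers. None of the 28 sterol genes passed the threshold of 0.05 on the adjusted p at any age, where all genes gave 0.00513% at ED7.5, 0.0513% at ED14.5 and 0% in liver. At ED14.5 and in liver most of the 28 lay lower in SL samples, with no single gene past the test.

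At ED7.5 the family showed no common direction. Of 28 members 11 were lower and 17 higher in SL samples, the median difference was 0.05 (0.00 over all genes), and 0 had an unadjusted p below 0.05, against 5.49% of all genes. Differences ran between -0.28 for Npc1 and 0.46 for Mvd (adjusted p = 0.913 and 0.945). Srebf2 had 10.98, 11.13, 10.97 and 11.19 in SL samples, against 10.90, 10.91, 11.00 and 11.07 in controls. Hmgcs1 had 10.97, 11.13, 11.08 and 11.09 in SL samples, against 11.09, 10.99, 10.97 and 11.17 in controls. The groups of both genes overlapped. Insig1 had 9.10, 9.37, 9.30 and 9.40 in SL samples, against 9.24, 9.19, 9.24 and 9.20 in controls. Sqle had 9.18, 9.36, 9.27 and 9.33 in SL samples, against 9.40, 9.19, 9.18 and 9.35 in controls. Abca1 had 9.44, 9.56, 9.45 and 9.40 in SL samples, against 9.50, 9.34, 9.02 and 9.27 in controls. All 3 overlapped again, and the control range of Abca1 was wider on its low side. Abcg5 was at background on all 8 arrays, between 3.81 and 4.42 in SL samples and between 3.17 and 4.16 in controls. Abcg8 was at background on all 8 arrays too, and both count among the 17 higher. Control replicate 2 had the highest array background of the age (6.53) and the lowest separation of positive from negative control probe sets (0.867, where 1 is complete), and without it 11 of 17 enzymes were lower in SL samples, against 7 of 17 with it. Among the other genes of the pathway 0 of 28 passed the adjusted threshold at ED7.5, and 0 had an unadjusted p below 0.05.

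At ED14.5, 23 of 28 members were lower in SL samples, against 50% of all genes, with a median difference of -0.18 (0.00 over all genes). The enzymes had 15 of 17 lower and a median of -0.20, the SREBP control genes 4 of 4 and -0.21, and the efflux and transport genes 4 of 7 and -0.17. The last class includes Abcg8 (-0.17), counted as lower, and Abcg5 (0.33), counted as higher, although both were at background on all 8 arrays. An unadjusted p below 0.05 was found for 8 members, all lower (5.81% of all genes were lower by that rule): Cyp51, Mvd, Dhcr7, Insig1, Lss, Nsdhl, Sqle and Fdft1. In 5 of them the groups did not overlap (4.27% of all genes did so in that direction). The count of 8 became 5 without SL replicate 1, 2 or 4 or control replicate 4, and 4 without control replicate 2 or 3, whereas 22 to 24 members were below 0 whichever array was left out. Without SL replicate 1 the median of the SREBP control genes became -0.11 and that of the efflux and transport genes 0.054. The efflux and transport median became -0.088 without control replicate 4.

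Cyp51, the lanosterol demethylase, had 10.60, 10.34, 10.51 and 10.33 in SL samples, against 10.78, 10.79, 10.90 and 10.92 in controls. Every SL array was below every control array, with a difference of -0.40 (SE 0.0999, 95% interval -0.63 to -0.18, adjusted p = 0.184). Mvd had 8.58, 8.08, 8.59 and 8.50 in SL samples, against 8.76, 8.97, 9.22 and 9.01 in controls. The groups were apart by -0.55 on the mean (SE 0.147, adjusted p = 0.218), and SL replicate 2 lay lowest. Dhcr7, which completes cholesterol by reducing 7-dehydrocholesterol, had 9.26, 9.57, 9.68 and 9.63 in SL samples, against 9.90, 9.98, 9.90 and 9.96 in controls. Its controls spanned less than its SL samples, and the difference was -0.40 (SE 0.110, adjusted p = 0.235). Fdft1 had 10.81, 10.90, 11.01 and 10.98 in SL samples, against 11.13, 11.15, 11.06 and 11.16 in controls, a narrow separation of -0.20 (adjusted p = 0.436).

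Insig1 was the SREBP control gene whose groups did not overlap, with 9.80, 9.57, 9.83 and 9.73 in SL samples, against 9.95, 9.91, 10.13 and 10.30 in controls. Its difference was -0.34 (SE 0.116, adjusted p = 0.315). Srebf2 had 10.90, 10.98, 11.17 and 11.15 in SL samples, against 10.90, 11.08, 11.15 and 11.29 in controls. These ranges overlapped almost entirely (difference -0.05, 95% interval -0.31 to 0.21). Sqle had 9.66, 9.64, 9.70 and 9.44 in SL samples, against 9.68, 9.86, 9.89 and 10.03 in controls, overlapping through 1 control array. Hmgcs1 had 12.10, 12.22, 12.33 and 12.23 in SL samples, against 12.45, 12.39, 12.32 and 12.36 in controls, and overlapped likewise (difference -0.16, adjusted p = 0.526). Lss (-0.31) and Nsdhl (-0.25, part of the C4-demethylation complex) also overlapped.

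Abca1 had 9.67, 9.89, 9.99 and 9.70 at ED14.5 in SL samples, against 10.15, 9.84, 9.98 and 9.96 in controls. The groups overlapped, with a difference of -0.17 (adjusted p = 0.607). Abcg5 had 5.15, 5.44, 5.72 and 4.75 in SL samples, against 4.76, 4.86, 5.60 and 4.54 in controls, all at background. Among the other pathway genes 0 of 28 passed the adjusted threshold. An unadjusted p below 0.05 was found for 3 of 28, against 11.4% of all genes: Pgrmc1, a haem protein that binds CYP51 (0.32, adjusted p = 0.26), Aacs, acetoacetyl-CoA synthetase (-0.46, adjusted p = 0.28), and Nr1h3, liver X receptor alpha (-0.39, adjusted p = 0.412). Hepatocyte markers had a median difference of -0.02, and erythroid markers were lower for 6 of 7 genes (median -0.15; per-array means 11.86 to 12.02 in SL samples, 12.01 to 12.16 in controls). Sinusoidal endothelium markers were lower for 6 of 6 genes (median -0.10; 8.06 to 8.38 in SL samples, 8.32 to 8.44 in controls) and Kupffer cell markers for 7 of 10 (median -0.12; 7.35 to 7.48 in SL samples, 7.27 to 7.71 in controls). The part of these cell types in the sterol values was not tested.

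**Figure D3:**
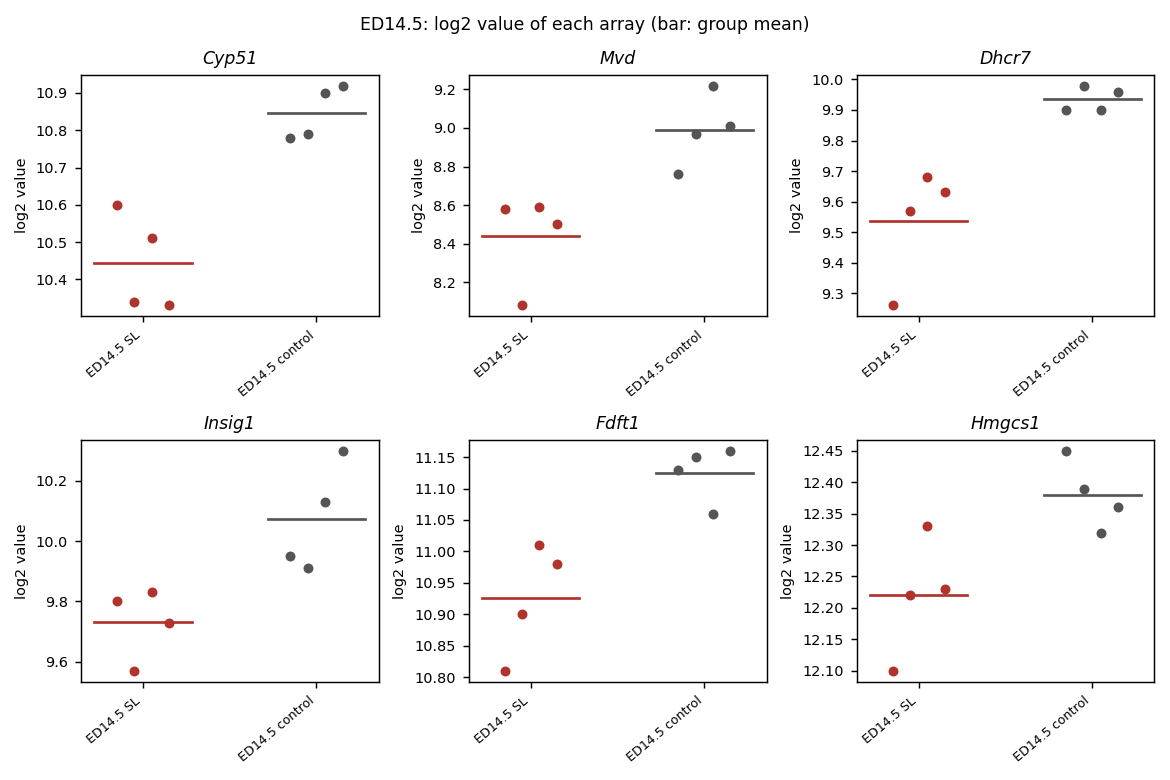
Log2 value of every array for 6 sterol genes at ED14.5, SL left and control right, with each axis cut to the gene's range and the bar at the group mean. The groups do not overlap for Cyp51, Mvd, Dhcr7, Insig1 and Fdft1, and Hmgcs1 overlaps through 1 array of each group.

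In PD7.5 liver, 23 of 28 members were again lower in SL samples, against 49.3% of all genes, and the median difference was -0.22 (0.00 over all genes). By role, all 17 enzymes were lower (median -0.34, range -0.81 to -0.07), the SREBP control genes had 3 of 4 lower (median -0.13), and the efflux and transport genes had 3 of 7 lower (median 0.03). An unadjusted p below 0.05 was found for 8 enzymes, all lower (3.62% of all genes were lower by that rule): Mvk, Sqle, Dhcr7, Fdps, Pmvk, Msmo1, Nsdhl and Lss. In 7 enzymes the groups did not overlap (2.3% of all genes in that direction), Ebp being the one without such a p. The count of 8 became 5 without SL replicate 4 or without control replicate 2, while 16 or 17 of the 17 enzymes stayed below 0 whichever array was left out. The enzyme median ran between -0.37 and -0.22 when 1 array was left out, the smallest without control replicate 2. The median of the SREBP control genes ran between -0.22 and 0.0086, above 0 without SL replicate 4, and that of the efflux and transport genes ran between -0.028 and 0.12, below 0 without SL replicate 4 or control replicate 2 or 3.

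Mvk had 7.12, 6.32, 7.22 and 6.71 in SL livers, against 7.70, 7.76, 7.46 and 7.67 in control livers. The groups were apart, and the SL livers varied more, with a difference of -0.81 (SE 0.201, 95% interval -1.26 to -0.36, adjusted p = 0.509). The next enzyme, phosphomevalonate kinase (Pmvk), had 8.50, 8.48, 8.30 and 8.39 in SL livers, against 8.77, 8.90, 8.77 and 8.59 in control livers. Its difference of -0.34 (adjusted p = 0.581) came with tight groups on both sides. Fdps, farnesyl diphosphate synthase, had 7.93, 7.62, 7.82 and 7.64 in SL livers, against 8.08, 8.57, 8.02 and 8.25 in control livers, apart by -0.48 (adjusted p = 0.568).

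Sqle, which commits squalene to sterols, had 8.27, 7.83, 7.91 and 7.68 in SL livers, against 8.71, 9.19, 8.16 and 8.81 in control livers. Control replicate 3 fell inside the SL range, so the groups overlapped despite a difference of -0.80 (SE 0.222, adjusted p = 0.516). Msmo1, the sterol C4-methyl oxidase, had 8.75, 8.54, 8.33 and 8.04 in SL livers, against 8.89, 8.88, 8.77 and 8.94 in control livers. Nsdhl, which acts in the same complex, had 9.96, 9.81, 9.92 and 9.50 in SL livers, against 10.09, 10.19, 10.24 and 10.10 in control livers. In both, SL replicate 4 was lowest and the control livers were close together (differences -0.45 and -0.35, adjusted p = 0.581 and 0.62). Dhcr7 had 8.81, 8.26, 8.89 and 8.62 in SL livers, against 8.99, 9.17, 9.29 and 9.13 in control livers, apart by -0.50 (adjusted p = 0.561).

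At the entry of the pathway, Hmgcs1 had 12.37, 12.08, 12.12 and 11.99 in SL livers, against 12.18, 12.31, 12.19 and 12.31 in control livers. The highest value of all 8 belonged to an SL liver, and the difference was -0.11 (95% interval -0.39 to 0.18). Fdft1, apart at ED14.5, differed by -0.07 in liver (adjusted p = 0.932). Cyp51 differed by -0.23 (adjusted p = 0.715).

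Among the control genes in liver, Srebf2 had 10.29, 10.01, 10.44 and 10.20 in SL livers, against 10.31, 10.51, 10.70 and 10.59 in control livers. Control replicate 1 lay within the SL range, with a difference of -0.29 (adjusted p = 0.66). Insig1 had 10.28, 10.08, 10.18 and 9.31 in SL livers, against 10.19, 10.55, 9.97 and 10.11 in control livers. Apart from SL replicate 4, the lowest of the 8, these groups overlapped. Insig2 differed by 0.10 and Scap by -0.01.

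The efflux genes had differences on both sides of 0. Abca1 had 11.23, 11.43, 11.24 and 11.47 in SL livers, against 11.35, 11.20, 11.13 and 11.57 in control livers. Abcg5 had 11.08, 11.14, 11.34 and 11.17 in SL livers, against 10.93, 10.87, 11.27 and 11.36 in control livers. Both overlapped throughout, with 95% intervals of -0.28 to 0.35 for Abca1 and -0.26 to 0.41 for Abcg5. Abcg8 differed by 0.19 and Mylip by 0.13, while Npc1, Npc2 and Stard4 differed by -0.17, -0.16 and -0.08. Of the other pathway genes 0 of 28 passed the adjusted threshold. An unadjusted p below 0.05 was found for 3 of 28, against 7.91% of all genes: Ch25h (0.97, at background on all 8 arrays, adjusted p = 0.509), the sterol-regulated membrane protein gene Tmem97 (-0.36, adjusted p = 0.581) and the efflux pump gene Abcg1 (-0.33, adjusted p = 0.623).

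**Figure D4:**
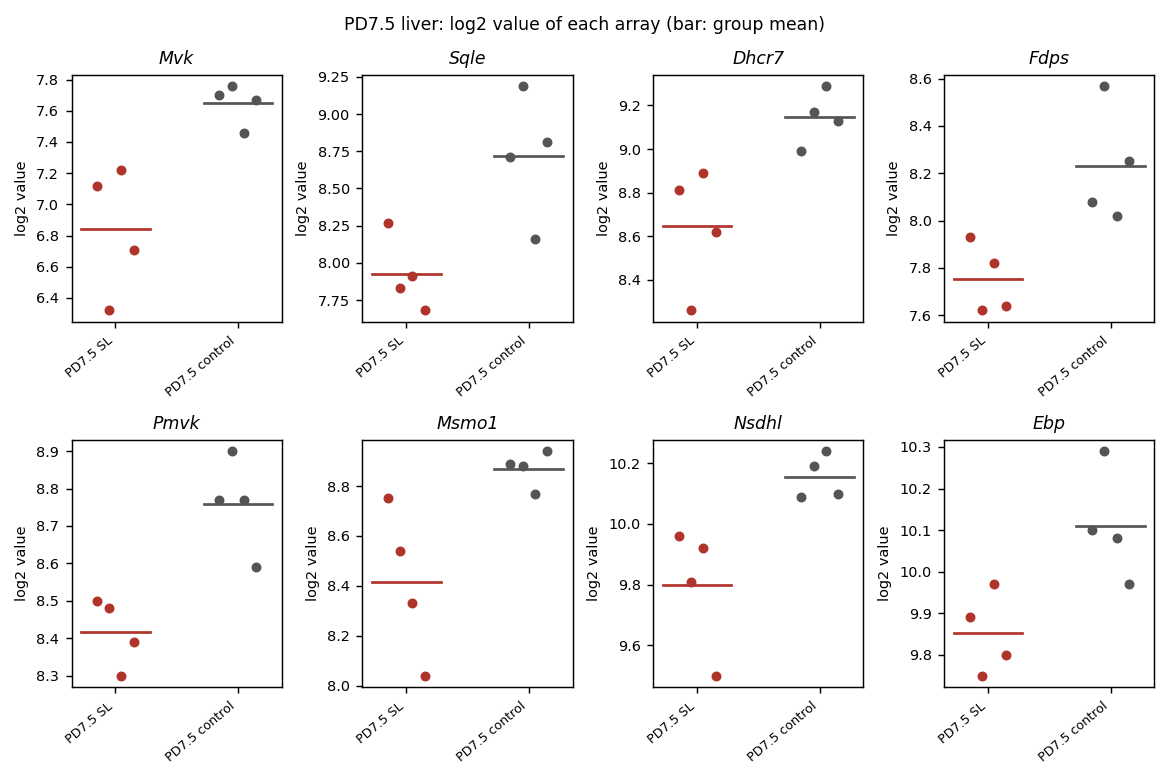
Log2 value of every array for 8 synthesis enzymes in PD7.5 liver, SL left and control right, with each axis cut to the gene's range and the bar at the group mean. The 8 are the 7 enzymes whose groups do not overlap (Mvk, Dhcr7, Fdps, Pmvk, Msmo1, Nsdhl and Ebp) and Sqle, whose groups overlap.

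Other measures also moved with the liver groups. Separation of the control probe sets was 0.897 to 0.904 on SL arrays and 0.906 to 0.920 on control arrays, without overlap. With that separation as a covariate all 17 enzymes were below 0 with a median of -0.34, as large as without it, and 3 members instead of 8 had an unadjusted p below 0.05. In the same fit the median of the efflux and transport genes was -0.19, against 0.03 without the covariate. Because the separation did not overlap between the groups, this fit cannot tell it apart from the SL difference. Erythroid markers were lower in SL livers for 7 of 7 genes (median -0.56; per-array means 7.91 to 9.74 against 9.19 to 10.16 in control livers), Kupffer cell markers for 9 of 10 (median -0.24; 8.71 to 8.98 against 8.97 to 9.09), and granulocyte markers were higher for 10 of 10 (median 0.39; 9.34 to 9.48 against 8.51 to 9.44). Hepatocyte markers had a median difference of 0.01. The part of these cell types in the enzyme values was not tested.

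**Figure D5:**
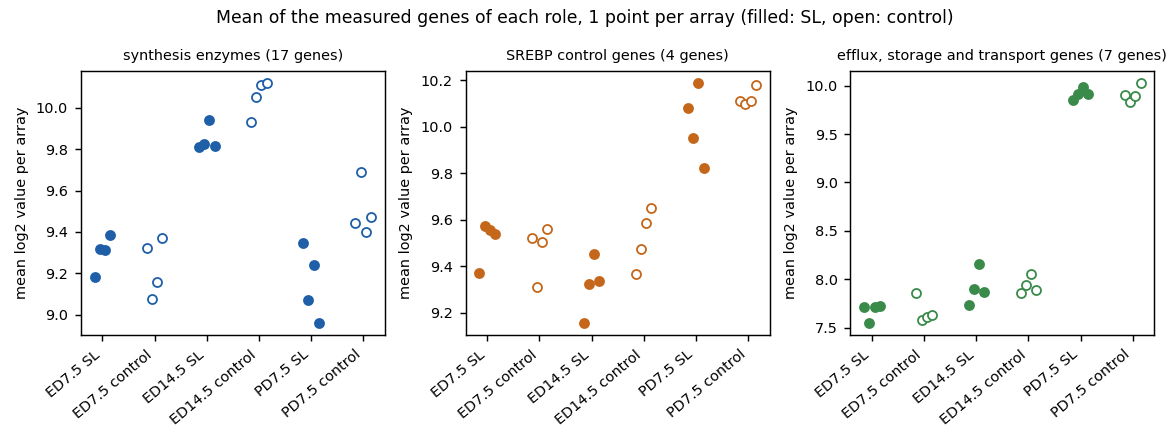
Mean log2 value per array over the measured genes of each role, by group, with SL filled and control open and each panel on its own axis. Enzyme means in liver are 8.96 to 9.35 in SL and 9.40 to 9.69 in control, and at ED14.5 they are 9.81 to 9.94 in SL and 9.93 to 10.12 in control.

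Averaged per array over the 17 enzymes, SL livers lay at 8.96 to 9.35 and control livers at 9.40 to 9.69, without overlap. The same mean was 9.81 to 9.94 in SL samples and 9.93 to 10.12 in controls at ED14.5, overlapping through 1 array of each group, and 9.18 to 9.39 in SL samples and 9.08 to 9.37 in controls at ED7.5. These means describe 17 genes that share their arrays and are given without a test.

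Whether the SL difference itself changed with age was tested as an interaction over all 24 arrays. No member passed, where 0.0256% of all genes did between liver and ED14.5 and 0.0769% between ED14.5 and ED7.5. Between liver and ED14.5, 2 of 28 members had an unadjusted p below 0.05, against 10.6% of all genes: Mvk (-0.66, adjusted p = 0.337) and Sqle (-0.54, adjusted p = 0.39). Between ED14.5 and ED7.5, 5 of 28 did, against 6.92% of all genes: Mvd (-1.01, adjusted p = 0.481), Msmo1 (-0.49), Cyp51 (-0.47), Nsdhl (-0.39) and Abca1 (-0.35). The genes that led at ED14.5 and in liver were therefore not shown to differ between those ages.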

How the data were processed

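Total RNA was hybridised as biotinylated cRNA to Affymetrix mouse arrays, and the deposited series table holds log2 values, made by the authors with RMA in the oligo package per the submitters' processing notes (no version or genome build was given in the sources used). RMA adjusts background and quantile-normalises, so a change shared by most genes would not be visible. The table has 29129 features, 22206 of them probe sets, and 19572 name 1 gene in the platform annotation. For 55 genes with several probe sets, the one with the highest mean over the 24 arrays was kept, giving 19505 genes. Differences were tested with limma 3.58.1 (R 4.3.3; lmFit and eBayes, two-sided, Benjamini-Hochberg over all genes, threshold 0.05), in the 8 arrays of each comparison, or in all 24 for interactions. Array number limits the precision.

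The members, roles, markers, motifs and other pathway genes were chosen with earlier results of these data known. Values of every array are given for members with an unadjusted p below 0.05 and no overlap of the groups, and for Srebf2, Insig1, Hmgcs1, Sqle, Abca1 and Abcg5; 5 genes per direction are named between ages, and at most 4 other pathway genes per comparison by unadjusted p. On simulated data of 19505 genes, the liver test recovered 63 of 100 genes changed by 1 log2 unit and 85 of 100 changed by 2. It also made 12 false calls. Both sizes exceed every member difference between SL and control, the largest being -0.81 for Mvk in liver. Recovery of changes that small was not simulated. Alternatives were another prior, a replicate block, filters, centring, all arrays in 1 fit, a covariate and leaving out each array. Same-numbered arrays correlated at -0.165 to 0.116 after group means were removed. The labels do not say what the numbers stand for, and these correlations cannot decide whether they pair samples. The main fits used no pairing.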

Additional observations from a re-analysis of the deposited data

Results flagged for a closer look

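In 2 of 168 sets of 4 arrays, 1 array lay far from the other 3, where chance gives about 1 in 20. Mvd had 8.08 in replicate 2 of the SL group at ED14.5, against 8.50 for the nearest of the others and 8.59 for the highest. Hsd17b7, a reductase of the C4-demethylation complex, had 9.10 in replicate 4 of the SL livers, against 9.46 for the nearest and 9.52 for the highest.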

How the results depend on the processing

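Counts of members lower in SL samples ranged from 22 to 24 at ED14.5 and in liver over all alternatives, and all 17 enzymes stayed below 0 in liver in each alternative that kept every array. None of the 8 members with an unadjusted p below 0.05 at ED14.5, nor of the 8 in liver, changed sign under 17 alternatives. With an intensity trend and robust prior, 3 members passed at ED14.5 (Cyp51, adjusted p = 0.0112, Mvd, 0.0304, and Dhcr7, 0.0331), against 0 otherwise, while 283 genes passed in all instead of 10; the cause was not tested for this or the changes that follow.

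Genes past the threshold at ED14.5 were 0 with a replicate block, 150 without genes at background, 5 with arrays centred, 79 in the fit of all 24 arrays and 4 with the covariate, and 1 to 5 when 1 array was left out. At ED7.5 the count of 1 became 3 with the trend and 12 in the fit of all 24 arrays (0 to 2 with 1 array left out), and in liver 0 became 5 in the fit of all 24 arrays. The 5 genes of the interaction between liver and ED14.5 became 28 with the trend, 9 with a replicate block, 20 without genes at background and 11 with centring, and the 15 between ED14.5 and ED7.5 became 35 with the trend and 25 without genes at background.

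Members lower with an unadjusted p below 0.05, a count added after seeing the data like that of enzymes below 0, were 1 with the trend and 2 in the fit of all 24 arrays at ED7.5 (0 to 2 with 1 array left out), 5 in that fit at ED14.5 (4 to 8) and 3 with the covariate in liver (5 to 9). Enzymes below 0 at ED7.5 ran between 5 and 11 with 1 array left out. The median of efflux and transport genes became -0.11 at ED7.5 without genes at background and -0.19 in liver with the covariate, and ran between -0.23 and 0.054 at ED14.5 with 1 array left out, the high end without SL replicate 1.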
